A study of Mus musculus with 4 samples.

Results

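The genes described here carry out mitosis: 51 genes for mitotic kinases, cyclins, spindle motors, kinetochores, condensin and cytokinesis. They were chosen by name, with earlier results of these data known, and found by symbol among the 55487 genes of the count table. All 51 had a row, and all 51 were among the 13496 genes tested. Of these, 47 met the filter on low counts in both control libraries, and Ttk, Kif4, Cenpk and Hmmr met it only together with fl/fl libraries. Libraries were made from poly(A) RNA of myeloid cells of mouse liver, sorted as CD45+ CD11b+ cells without CD3 or CD11c. Controls were LysM-Cre IL10R wt/wt (n = 2) and the other group was LysM-Cre IL10R fl/fl (n = 2). LysM-Cre is Cre recombinase expressed from the lysozyme 2 locus in macrophages, monocytes and granulocytes, and every library carried it. Cre deletes floxed DNA, here in the receptor for interleukin-10 (IL-10). The labels do not name the receptor chain, and give no age, sex or tumour status. They do not say whether each library is a separate mouse.

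In mitosis, cyclin-dependent kinase 1 bound to a B-type cyclin drives cells into division, chromosomes condense, microtubule motors build a bipolar spindle, and kinetochores attach chromosomes to it. The spindle checkpoint holds the anaphase-promoting complex (APC/C), a ubiquitin ligase, until every chromosome is attached. The APC/C then marks cyclin B and securin for destruction and the cell divides. Most of these genes are transcribed in the G2 and M phases of dividing cells and are low in resting or fully differentiated cells. In the myeloid lineage, division is known from progenitors and early granulocyte precursors, while mature neutrophils do not divide.

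Library totals lay between 17154042 and 26441014 counts. Il10ra (ENSMUSG00000032089), the ligand-binding receptor chain, was at 1111 and 994 CPM (each library's counts scaled to a common depth with TMM factors) in the controls, always given as wt/wt 1 then wt/wt 2. It was at 69.3 and 14.8 CPM in fl/fl 1 and fl/fl 2, in the direction of the labels. edgeR gave −4.64 ± 0.68 on the log2 scale (SE; adjusted p = 0.0193). The partner chain Il10rb held 96.2 and 90.4 CPM in the controls and 64.9 and 61.8 CPM in fl/fl (adjusted p = 0.0854). By Xist (4298 counts in fl/fl 2 and 0 elsewhere) and 4 Y-linked genes (1 count in fl/fl 2, 3455 to 6562 elsewhere), fl/fl 2 was female and the others male, so sex and library cannot be told apart within fl/fl. Of the Kupffer cell markers, Timd4 was at 0 in 3 libraries, Clec4f, Vsig4 and Marco did not pass the filter, and Adgre1 (F4/80) held 150 to 183 CPM in the 4 libraries. Of the 6 tested genes in the list of Kupffer cell and macrophage markers, 3 were lower in fl/fl by edgeR (median log2 fold change −1.745 over the 6).

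Mitotic genes were higher in fl/fl. Summed over the 51 genes, the level was 408 and 325 CPM in wt/wt 1 and 2 and 2455 and 932 CPM in fl/fl 1 and 2, a ratio of group means of 4.62. The log2 fold change (fl/fl over wt/wt) was above 0 for all 51, as it was for 51.9% of all tested genes. Its median was 2.82, against 0.02 over all tested genes. By the edgeR quasi-likelihood test with Benjamini-Hochberg adjustment over all tested genes, 33 of the 51 rose and 0 fell (DESeq2 called 44 higher and 0 lower, limma-voom 11 and 0). Across all genes, edgeR called 2.69% higher and 3.16% lower (5.85% in either direction). Of all 13496 genes, DESeq2 called 784 higher and 834 lower, and limma-voom 255 and 410. For 48 genes both fl/fl libraries lay above both wt/wt libraries, as did 28.1% of all tested genes, and for 0 both lay below (26.3% of all tested genes). By size, 49 were at least 2-fold and 42 at least 4-fold higher. The 33 called genes included 31 of at least 4-fold, against 1.49% of all genes that were both called and 4-fold higher.

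Among 18 genes that did not pass, 12 had an adjusted p between 0.05 and 0.1, among them Top2a, Ccnb1, Bub1 and Hmmr, and 6 were above 0.1: Bub3, Kif20a, Cenpa, Cenpk, Cenpm and Prc1. In bulk RNA, more dividing cells and more RNA per cell cannot be told apart. The edgeR calls rested on both wt/wt libraries: with either of them left out, edgeR calls were lost across all tested genes, not only for these 51. DESeq2 still made calls with either of them left out. With a single library left in either group, the spread is taken from the other group by assumption, so only the size of the change is given. Without wt/wt 1 and wt/wt 2 the median log2 fold change was 3.24 and 2.46.

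**Figure D1:**
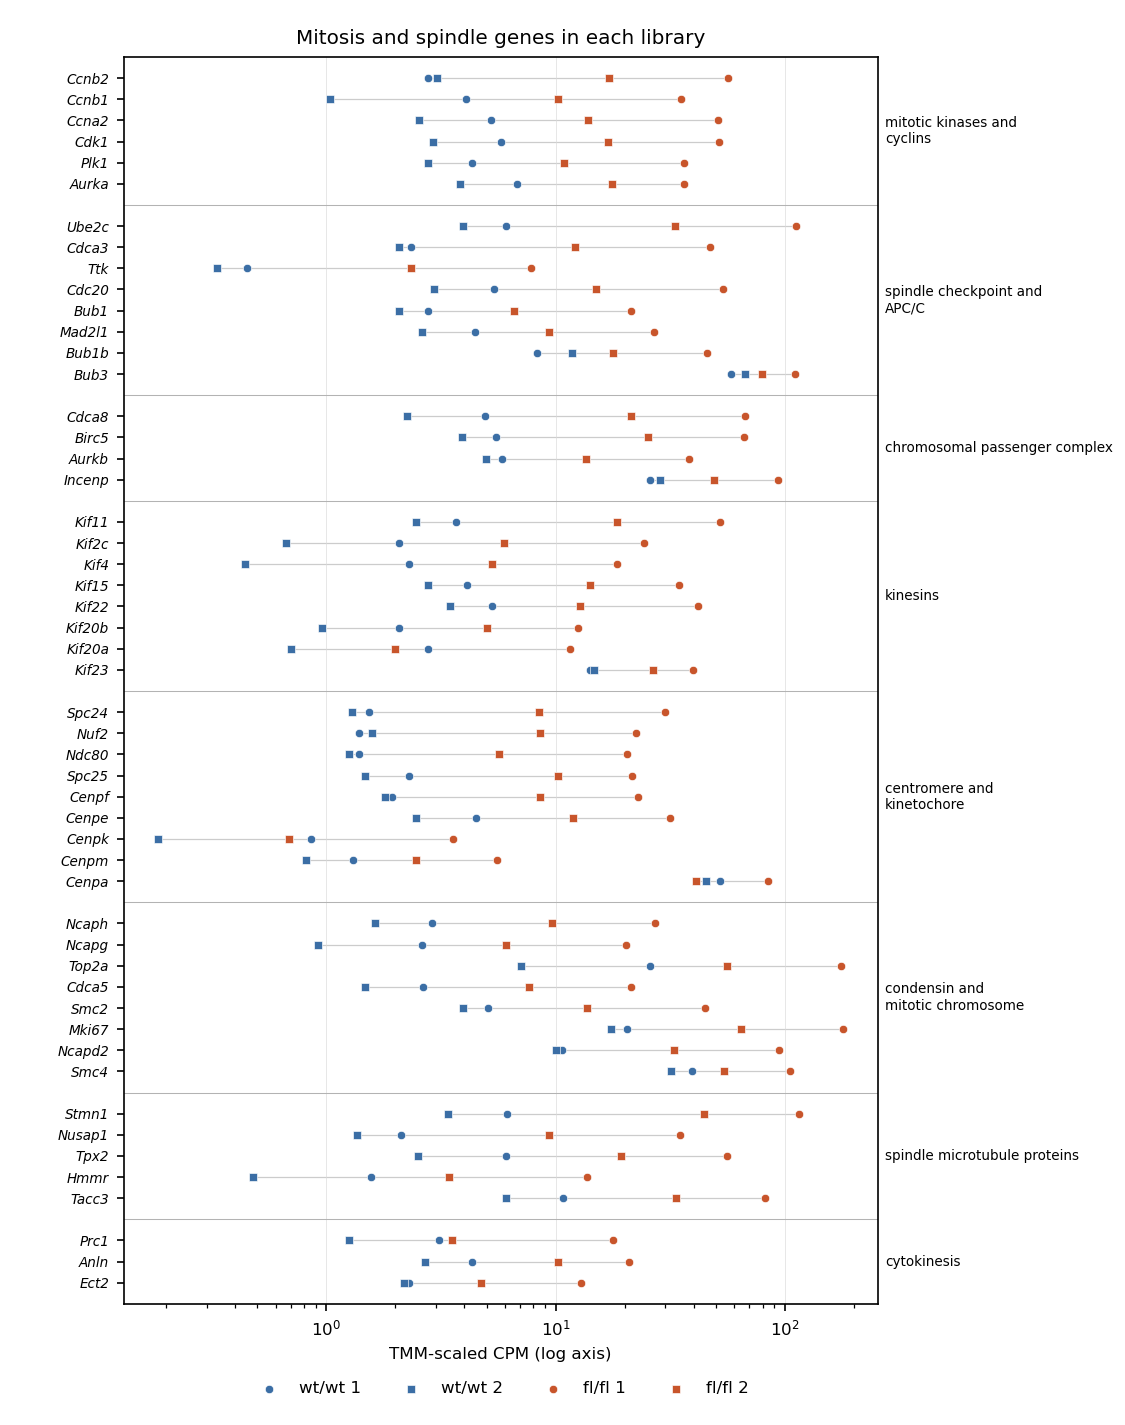
TMM-scaled CPM of the 51 mitotic genes on a log axis, grouped by function. Blue symbols are wt/wt and orange symbols fl/fl, with circles for library 1 and squares for library 2; in 48 genes both orange symbols lie to the right of both blue ones, and the fl/fl 1 circle lies farthest right in every row.

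The fl/fl libraries differed in degree. Each of the 51 genes had its highest level in fl/fl 1. Over all tested genes, 50.1% had fl/fl 1 above fl/fl 2. The ratio of fl/fl 1 to fl/fl 2 had a median of 2.90, from 1.39 for Bub3 to 5.80 for Kif20a, and the middle part of the genes lay between 2.59 and 3.42 (25th and 75th percentiles). The lower library, fl/fl 2, was still above the wt/wt mean for 50 genes, with Cenpa as the exception. It was below wt/wt 1 for 3: Kif20a, Cenpa and Cenpk. Without fl/fl 1 the median log2 fold change was 1.75. Medians of the 8 function groups then lay between 1.05 (cytokinesis) and 2.13 (spindle microtubule proteins). Without fl/fl 2 the median over the 51 was 3.38.

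A smaller difference ran the same way between the controls, where 45 of the 51 genes were higher in wt/wt 1 than in wt/wt 2 (50.01% of all tested genes). The median ratio was 1.55, from 0.703 for Bub1b to 5.18 for Kif4. At least 2-fold higher in wt/wt 1 were 13 genes, among them Top2a, Ccnb1, Ccna2, Kif2c, Hmmr and Prc1. Of these 13, Ccna2, Cdca8 and Tpx2 were called.

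**Figure D2:**
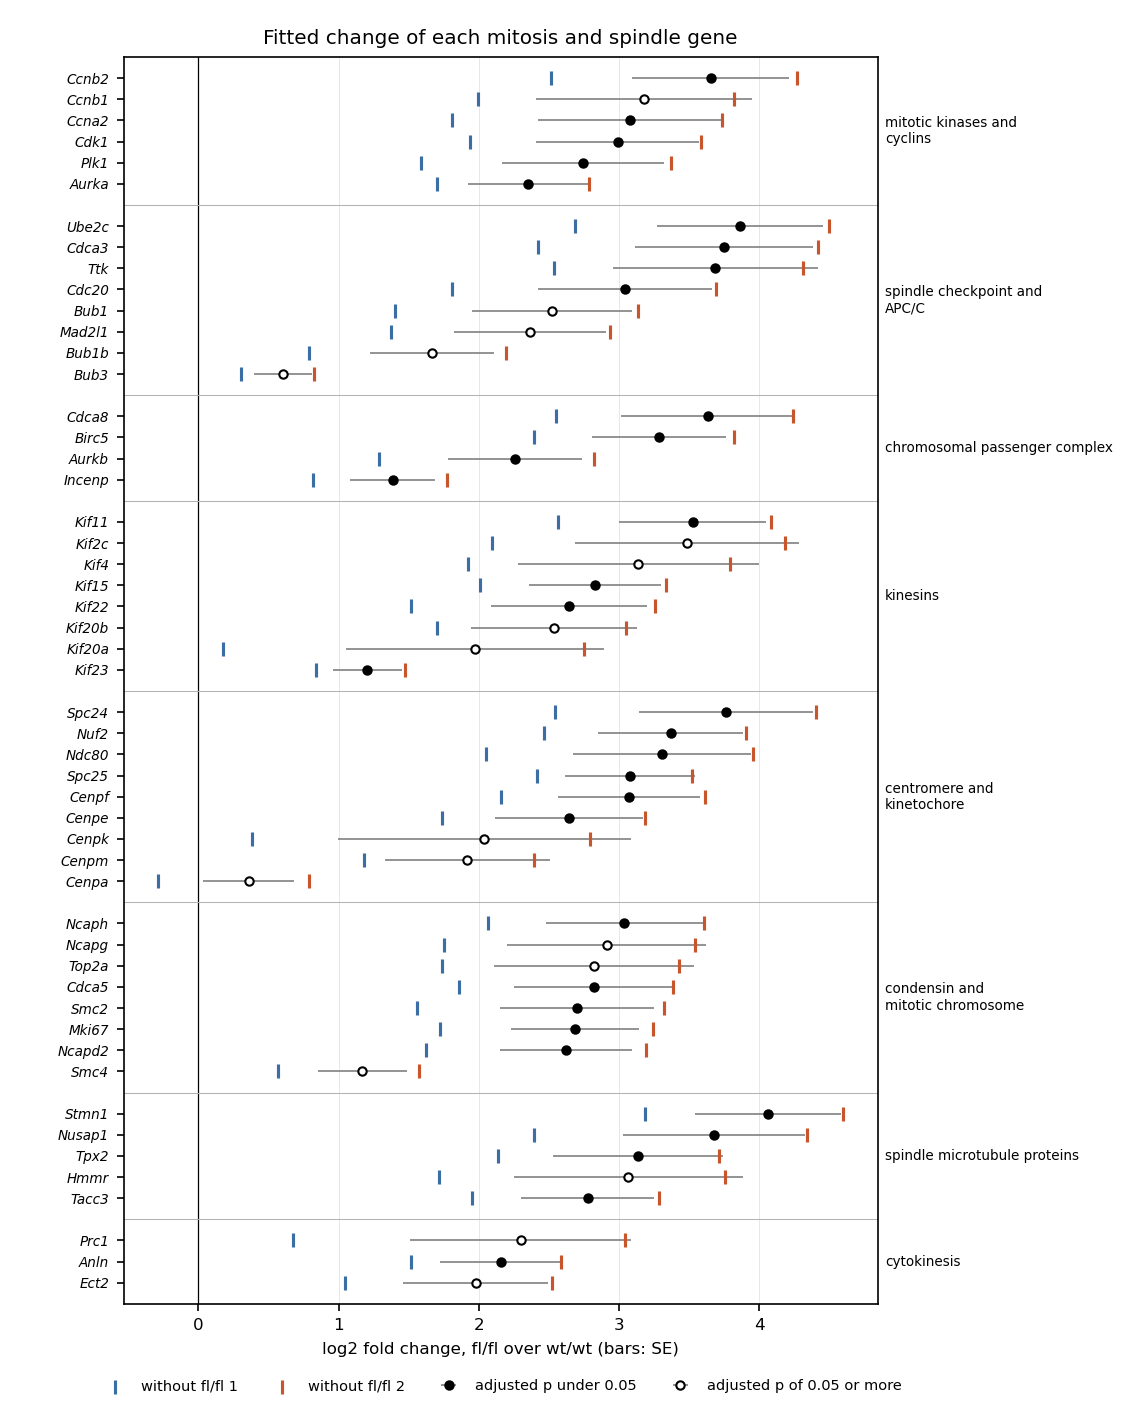
Fitted log2 fold change of each gene (fl/fl over wt/wt, circles, with the SE as bars), filled where the edgeR adjusted p was under 0.05. Blue and orange ticks give the value with fl/fl 1 or fl/fl 2 left out; the blue ticks lie to the left in every row, and the Cenpa tick falls below 0.

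Genes that rise together in G2 and M are known to share promoter elements. The cell cycle genes homology region (CHR) is bound by the MuvB complexes, named DREAM in resting and MYBL2- or FOXM1-containing in dividing cells. The CCAAT box is bound by NF-Y. RefSeq windows on GRCm38.p6, from 250 bases before to 50 after an annotated start, were matched by symbol for 43 of the 51 genes (48 windows). The stretches below, from 150 bases before to 30 after the start, belong to the genes with the largest change in 4 function groups among those whose window held both kinds of element, and show how these elements lie near the start. Capitals mark the CHR (TTTGAA) and the CCAAT box, each in either orientation (TTCAAA and ATTGG are their reverse complements).
Ube2c, chr2:164769779-164769958, plus strand: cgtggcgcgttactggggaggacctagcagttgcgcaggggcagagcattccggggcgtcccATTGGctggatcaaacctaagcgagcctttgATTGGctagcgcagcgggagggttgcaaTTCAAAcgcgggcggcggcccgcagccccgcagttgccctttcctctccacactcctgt
Ccnb2, chr9:70421525-70421704, minus strand: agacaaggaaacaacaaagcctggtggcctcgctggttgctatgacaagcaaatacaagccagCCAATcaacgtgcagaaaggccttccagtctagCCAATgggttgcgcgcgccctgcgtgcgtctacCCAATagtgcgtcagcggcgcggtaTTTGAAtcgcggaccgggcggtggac
Cdca8, chr4:124936888-124937067, minus strand: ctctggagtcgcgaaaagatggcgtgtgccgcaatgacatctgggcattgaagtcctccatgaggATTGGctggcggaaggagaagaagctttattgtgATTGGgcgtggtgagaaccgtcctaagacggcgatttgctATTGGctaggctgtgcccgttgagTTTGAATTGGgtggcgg
Kif11, chr19:37376232-37376411, plus strand: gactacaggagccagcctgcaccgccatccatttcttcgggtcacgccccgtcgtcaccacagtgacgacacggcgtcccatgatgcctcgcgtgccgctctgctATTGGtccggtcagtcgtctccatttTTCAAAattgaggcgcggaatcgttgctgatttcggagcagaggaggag
In each of the 4, CCAAT boxes stand on the side away from the gene and 1 CHR lies close to the start; in Cdca8 a further CCAAT box overlaps the CHR by sharing a letter.

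The CHR was present in 35 of the 48 windows (72.9%), against 12.5% of 12339 windows of tested genes and 17.9% of 32851 windows of all genes. Within 50 bases of the start it was found in 31 windows (64.6%), against 3.21% of windows of tested genes. At least 2 CHR matches were in 25.0% of the windows against 1.30%. A CCAAT box was in 36 of the windows (75%), against 37.8%, and at least 2 in 52.1% against 14.2%. CHR and CCAAT box stood together in 60.4% against 5.09%. With the CHR variants TTCGAA and TTTAAA counted too, 37 of the 43 genes held a CHR-type match (86.0% of genes, against 24.9% of tested genes). Other mitotic genes, outside the 51, held these elements to an extent that varied by list. The CHR was in 40% of the windows of mitotic transcription and entry genes, 46.7% of other spindle and cytokinesis genes and 34.4% of other kinetochore genes, and the CCAAT box in 75%, 66.7% and 65.6%. Core APC/C genes and inhibitors held the CHR in 15.8% and the CCAAT box in 42.1%. For cohesin, separase and condensin II genes the shares were 33.3% and 41.7%. DNA replication genes held the CCAAT box in 60% and the CHR in 12%. A match is a run of letters, not a tested binding site.

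Genes with the smallest change also held the element, among them Bub3, Cenpa and Kif23 (log2 fold changes 0.60, 0.36 and 1.20). Cenpk, Mad2l1, Ncaph, Nuf2, Nusap1 and Tacc3 held none of the 3 CHR spellings in these windows and had log2 fold changes from 2.04 (Cenpk) to 3.68 (Nusap1).

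**Figure D3:**
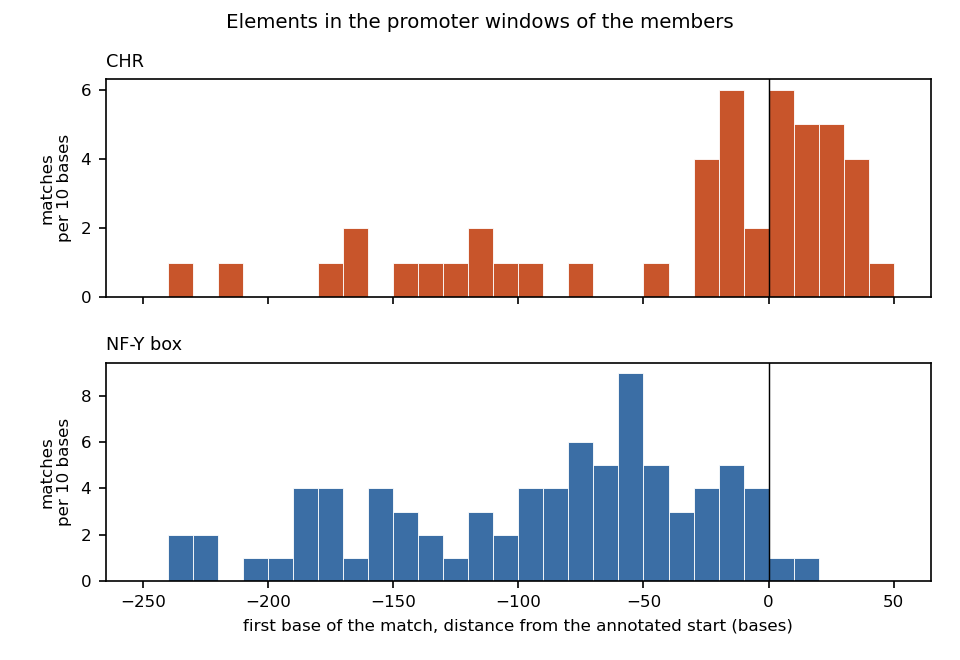
Position of each CHR match (upper panel) and each CCAAT box, drawn as the NF-Y box (lower panel), in the 48 promoter windows of 43 mitotic genes, as matches per 10 bases against the distance from the annotated start (vertical line). Of 47 CHR matches, 34 lie between 50 bases before and 49 after the start, as do 23 of 81 CCAAT boxes. Between 100 and 21 bases before the start lie 7 CHR matches and 40 CCAAT boxes. Overlapping windows of a gene can count a site more than once.

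The kinases and cyclins that start mitosis rose, 5 of 6 by the test, with a median log2 fold change of 3.03. Ccnb2 (chromosome 9, 70407692 to 70421547, minus strand, GRCm38), a B-type cyclin that activates Cdk1, held 2.79 and 3.02 CPM in the controls and 56.2 and 17.1 CPM in fl/fl. Both fl/fl libraries were well above the controls, 12.6-fold by the fit (log2 fold change 3.65 ± 0.56, SE; adjusted p = 0.0201). Cdk1 itself (chromosome 10, 69335146 to 69352938, minus strand) held 5.75 and 2.91 CPM in the controls and 51.6 and 17.0 CPM in fl/fl (2.99 ± 0.58; adjusted p = 0.0352). Aurka, the centrosomal Aurora kinase, had the smallest change here at 6.78 and 3.83 against 36.4 and 17.7 CPM (2.35 ± 0.43; adjusted p = 0.0306).

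Ccna2, the S and G2 cyclin, and Plk1, the Polo kinase of mitotic entry and spindle assembly, were at log2 fold changes of 3.08 and 2.75 and passed. Ccnb1, the main partner of Cdk1 at mitotic entry, held 4.04 and 1.03 CPM in the controls and 35.2 and 10.3 CPM in fl/fl. The groups did not overlap, yet its controls differed 3.92-fold, and the change did not pass (3.18 ± 0.77; adjusted p = 0.0646). Annotated copies of Ccnb1 of at least 95% identity, Ccnb1-ps, Gm12856 and Gm8416, held at most 2 counts in a library.

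Of the 8 genes of the spindle checkpoint and its target, the APC/C, 4 rose and 4 did not pass (median 2.78). Ube2c, the ubiquitin-conjugating enzyme of the APC/C, held 6.06 and 3.94 CPM in the controls and 112 and 33.0 CPM in fl/fl. That was a 14.6-fold difference (3.86 ± 0.59; adjusted p = 0.0199), without overlap. Cdc20, the APC/C activator that the checkpoint blocks, Cdca3, an adaptor of mitotic entry, and Ttk, the kinase at the head of the checkpoint, were at 3.05, 3.75 and 3.69 and passed. Ttk, which met the count filter only through the fl/fl libraries, was at 2.54 without fl/fl 1. Ttk was the lowest per length in wt/wt, at 0.0794 CPM per kb of exon.

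Checkpoint proteins were less uniform. Bub3, a WD-repeat protein that brings checkpoint kinases to the kinetochore, held 58.4 and 67.0 CPM in the controls and 111 and 79.7 CPM in fl/fl (0.60 ± 0.20; adjusted p = 0.143). The libraries of the genotypes were close, although they did not overlap. Bub1b (BubR1) held 8.27 and 11.8 against 45.8 and 17.8 CPM and was at 1.67. Bub1 and Mad2l1, a kinase and an inhibitor of Cdc20, were at 2.52 and 2.36, with adjusted p = 0.0535 and 0.0553.

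The chromosomal passenger complex, which corrects faulty attachments, rose in all 4 subunits. Cdca8 (borealin) held 4.90 and 2.25 CPM in the controls and 66.8 and 21.3 CPM in fl/fl (3.63 ± 0.62; adjusted p = 0.0252). Birc5 (survivin) held 5.48 and 3.91 against 66.2 and 25.3 CPM (adjusted p = 0.0191). For both targeting subunits the fl/fl libraries lay above the controls and also differed between themselves. The kinase Aurkb was at a log2 fold change of 2.26. Incenp, the scaffold of the complex, held 25.8 and 28.6 CPM in the controls and 93.1 and 49.3 CPM in fl/fl. Its log2 fold change was 1.39 ± 0.30 (adjusted p = 0.0477), the smallest of the 4, and 0.82 without fl/fl 1.

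Kinesins are the motors of the spindle, and 4 of 8 rose (median 2.74). Kif11 (Eg5; chromosome 19, 37376403 to 37421859, plus strand), which pushes the spindle poles apart, held 3.68 and 2.47 CPM in the controls and 52.1 and 18.6 CPM in fl/fl. It was 11.5-fold higher (3.53 ± 0.52; adjusted p = 0.0193), with every fl/fl value above the controls. Kif15, which can share the task of Kif11, and the chromosome-arm motor Kif22 were at 2.83 and 2.64 and passed. Kif23, a subunit of the centralspindlin complex of the midzone, had the highest CPM of the kinesins over the 4 libraries, though not in fl/fl 1, at 14.2 and 14.6 in the controls and 39.9 and 26.5 in fl/fl. Its libraries were close within each genotype, and a change of 1.20 ± 0.25 passed (adjusted p = 0.0402). Without fl/fl 1 the change was 0.84.

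Of the kinesins that did not pass, Kif2c, a microtubule depolymerase at centromeres, and Kif4, a chromokinesin, were at 3.49 and 3.14. Their values were low in wt/wt 2, at 0.663 and 0.442 CPM against 2.07 and 2.29 in wt/wt 1. Kif20b was at 2.54. Kif20a held 2.79 and 0.70 CPM in the controls and 11.6 and 2.00 in fl/fl, so that the groups overlapped (1.97 ± 0.92; adjusted p = 0.271; 0.17 without fl/fl 1). The exons of Kif20a share 29.3% of their length with Cdc23 on the opposite strand, and the strand setting of the counting is not given in the sources used here.

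Centromere and kinetochore genes ranged from large to small changes. Of 9, 6 rose, with a median over the 9 of 3.07. All 4 subunits of the NDC80 complex, which grips the microtubule end, were among them. Spc24 held 1.53 and 1.29 CPM in the controls and 29.9 and 8.45 CPM in fl/fl (3.76 ± 0.62; adjusted p = 0.0239). Spc25 held 2.29 and 1.47 against 21.5 and 10.3 CPM (3.08 ± 0.46; adjusted p = 0.0194). Ndc80 and Nuf2 were at 3.30 and 3.37, so the 4 genes of this complex lay between 3.08 and 3.76 on the log2 scale. Cenpe, the kinetochore motor, and Cenpf, a large protein of the outer kinetochore, were at 2.64 and 3.07 and passed.

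Cenpa (chromosome 5, 30666777 to 30674830, plus strand), the histone H3 variant that marks centromeres, behaved otherwise. It held 52.1 and 45.4 CPM in the controls and 84.0 and 41.0 CPM in fl/fl. The fl/fl libraries lay on either side of the controls, and the change was 0.36 ± 0.32 (adjusted p = 0.581), turning to −0.29 without fl/fl 1. Cenpk and Cenpm of the inner kinetochore were at 2.04 and 1.92 and did not pass. Cenpk had 19 and 5 counts in the controls and 61 and 12 in fl/fl, and its libraries overlapped.

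Condensin folds chromosomes for division, and 3 of its 5 subunits rose. Ncaph, the subunit that closes the ring, held 2.88 and 1.62 CPM in the controls and 27.2 and 9.65 in fl/fl (3.04 ± 0.56; adjusted p = 0.0307). Ncapd2 and the core ATPase Smc2 were at 2.62 and 2.70 and passed. The partner ATPase Smc4 was far more abundant in the controls, at 39.3 and 31.8 CPM, and held 106 and 54.2 CPM in fl/fl. Its groups did not overlap, but 1.17 ± 0.32 did not pass (adjusted p = 0.0846). Ncapg was at 2.91 (adjusted p = 0.0652).

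Mki67 (chromosome 7, 135689784 to 135716361, minus strand), which coats mitotic chromosomes and is the classic proliferation marker, held 20.5 and 17.4 CPM in the controls. In fl/fl it held 180 and 64.2 CPM. The means were 18.98 ± 2.19 and 122 ± 81.6 CPM (SD, n = 2 each), and the log2 fold change was 2.68 ± 0.46 (adjusted p = 0.0252). Top2a (chromosome 11, 98992943 to 99024189, minus strand), the topoisomerase that untangles sister chromatids, held 25.7 and 7.07 CPM in the controls and 175 and 55.8 CPM in fl/fl. Its fold change was close to that of Mki67, at 2.82 ± 0.71, but the controls differed 3.63-fold and it did not pass (adjusted p = 0.0719). Cdca5 (sororin), which protects cohesion between sister chromatids, was at 2.82 and passed, and was at 1.86 without fl/fl 1.

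Spindle microtubule proteins gave the largest single change. Stmn1 (stathmin; chromosome 4, 134468320 to 134473843, plus strand), which binds tubulin and destabilises microtubules, held 6.15 and 3.39 CPM in the controls and 115 and 44.2 CPM in fl/fl. That was 16.8-fold higher (4.07 ± 0.52; adjusted p = 0.0149), and 3.18 without fl/fl 1. Per kb of exon, Stmn1 was the most abundant of the 51 in fl/fl, at a mean of 41.4 CPM per kb, against a median of 5.46 over the 51 genes. A near-identical copy of part of Stmn1, Gm11223, held 0 to 34 counts against 92 to 1972 for Stmn1.

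Nusap1, which bundles spindle microtubules, and Tpx2, which activates Aurka on the spindle, were at 3.68 and 3.14 and passed. Tacc3, a clathrin-linked crosslinker of spindle fibres, held 10.8 and 6.08 CPM in the controls and 81.9 and 33.3 CPM in fl/fl (2.78 ± 0.47; adjusted p = 0.0253). Hmmr was at 3.07 and did not pass, with 35 and 13 counts in wt/wt (adjusted p = 0.0806). The median of these 5 genes was 3.14.

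Cytokinesis genes had the lowest median of the 8 groups, at 2.16, over only 3 genes, and the groups were not tested against each other. Anln (anillin), the scaffold of the cleavage furrow, held 4.31 and 2.69 CPM in the controls and 20.9 and 10.3 CPM in fl/fl (2.16 ± 0.44; adjusted p = 0.0387). Without fl/fl 1 Anln was at 1.52. Prc1, which crosslinks the midzone, held 3.10 and 1.25 against 17.8 and 3.54 CPM and did not pass (2.30 ± 0.79; adjusted p = 0.147). Most of its difference lay in fl/fl 1: without that library the log2 fold change was 0.67. Ect2, which activates RhoA at the furrow, held 2.29 and 2.17 against 12.9 and 4.74 CPM (1.98 ± 0.52; adjusted p = 0.0787).

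Levels in the controls were uneven. Per kb of exon, the wt/wt mean had a median of 0.690 CPM over the 51 genes, and the highest were Bub3 (8.95), Cenpa (8.32), Smc4 (6.82) and Incenp (6.28). These 4 genes were also among the 9 with less than a 4-fold change, which were Cenpa, Bub3, Smc4, Kif23, Incenp, Bub1b, Cenpm, Kif20a and Ect2 in rising order. The wt/wt level enters both measures, so this is a description of the levels and not a test.

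Other mitotic genes, from lists of the pathway that exclude the 51, rose in smaller numbers, a difference that was not tested. Of 25 genes of mitotic transcription and entry, 6 rose (DESeq2 12, limma-voom 1). Their median was 1.64, or 0.53 without fl/fl 1. Among them, Pbk, a mitotic kinase, Cdkn3, a phosphatase that acts on Cdk1, and Nek2, a centrosomal kinase, were at 3.40, 4.04 and 3.40. The most abundant, E2f2, held 173 and 201 CPM in the controls and 278 and 232 in fl/fl, and did not pass (0.44, adjusted p = 0.199). The CHR-binding factors were named after their values were seen. Foxm1 held 4.22 and 2.51 CPM in the controls and 28.1 and 9.53 in fl/fl (2.49, adjusted p = 0.0501). Mybl2 held 4.94 and 1.99 against 18.8 and 2.74 CPM (1.64, adjusted p = 0.318). The MuvB core genes Lin9, Lin37, Lin52 and Lin54 were at −0.05, 0.00, 0.20 and −0.20.

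Core APC/C genes had small changes. Of 17 core subunits and inhibitors, edgeR called 0. An unadjusted p below 0.05 was found for 4 of them, as for 3040 of all 13496 tested genes. DESeq2 called 3 higher and limma-voom 0, and the median log2 fold change was 0.26 (0.02 without fl/fl 1). The most abundant, Anapc5, held 137 and 137 CPM in the controls and 212 and 158 in fl/fl. Ube2s, which extends ubiquitin chains, Fbxo5 (Emi1), an APC/C inhibitor, and the subunit gene Anapc13 were at 0.81, 2.61 and 0.85 (adjusted p = 0.0520, 0.0630 and 0.0632). Of 15 genes of cohesin, separase and condensin II, 1 rose, the cohesin acetyltransferase Esco2 (4.11, adjusted p = 0.0236). The median was 0.21, and the abundant cohesin subunit Stag2 held 119 and 120 against 135 and 136 CPM.

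Further kinetochore genes rose in 5 of 33 cases (median 1.43, or 0.76 without fl/fl 1). On all 4 libraries, DESeq2 called 13 of them higher and limma-voom 0. Cenph, Cenpn and Cenpi of the inner kinetochore were at 3.57, 2.81 and 3.01 and passed. The most abundant, Hjurp, the chaperone of Cenpa, held 75.6 and 81.6 CPM in the controls and 185 and 90.9 in fl/fl (0.81, adjusted p = 0.191). Of 30 other spindle and cytokinesis genes, 5 rose (DESeq2 10), with a median of 0.93, or 0.42 without fl/fl 1. Racgap1, the partner of Kif23 in centralspindlin, held 24.2 and 31.2 against 89.7 and 69.5 CPM (1.52, adjusted p = 0.0182). The spindle motor gene Kifc1 and the abscission gene Cep55 were at 3.50 and 3.15 and passed, and the transport kinesin Kif5b was at 0.05.

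**Figure D4:**
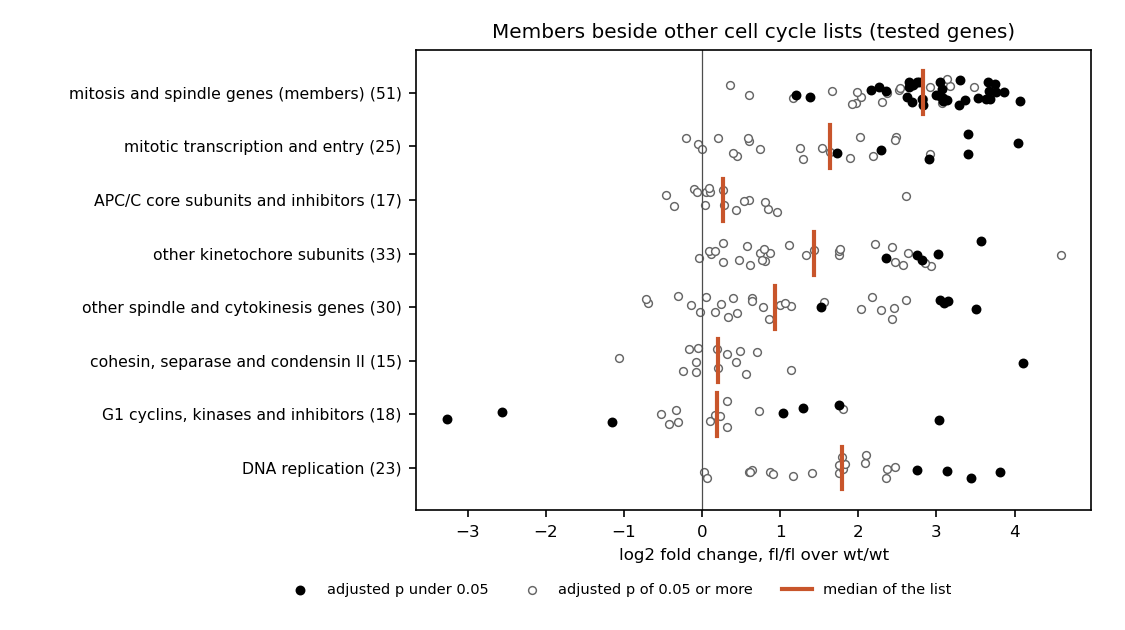
Log2 fold change (fl/fl over wt/wt) of each tested gene in the 51 mitotic genes and in 7 other cell cycle lists, with the number of tested genes in parentheses. Filled points passed the edgeR test and orange bars are medians, from 0.20 for G1 regulators to 2.82 for the 51 genes; vertical spread within a row is only for display.

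Markers of dividing granulocyte precursors differed between the same libraries. Of 11 precursor genes, 8 rose (median 3.21), and fl/fl 1 was the higher fl/fl library for 10. Prtn3 and Elane, enzymes of primary granules, held 28.0 and 23.4 CPM and 5.21 and 3.02 CPM in the controls, against 687 and 250 CPM and 296 and 87.8 CPM in fl/fl. Their ratios of fl/fl 1 to fl/fl 2 were 2.76 and 3.37. Over the 11 genes the log2 of this ratio ran from −0.08 to 2.88. Fcnb was at 3.13. The summed level of the list was 2193 to 2642 CPM in the controls and 1844 to 3410 CPM in fl/fl, most of it Srgn, the granule proteoglycan (2354 and 1946 against 1406 and 978 CPM), and all 11 genes had counts in every library. Of 12 mature neutrophil genes, 10 rose (median 3.07), and fl/fl 1 was the higher fl/fl library for 11 of them too. Their sum was 3303 and 4129 CPM in the controls and 40070 and 17960 CPM in fl/fl 1 and fl/fl 2. Only 2 of these 12 were higher in wt/wt 1 than in wt/wt 2, against 9 of the 11 precursor genes. The part of either cell type in the mitotic genes was not tested.

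The 7 classical monocyte genes, summed, held 9525 and 8008 CPM in the controls and 14450 and 7118 in fl/fl, with 1 gene higher and 1 lower. The 10 Kupffer cell and macrophage genes summed to 1241 and 1251 against 532 and 403 CPM, and 3 of the 6 tested fell. The 5 basophil and mast cell genes summed to 87.0 and 137 against 513 and 340 CPM, with 1 of 5 higher. Summed, the 5 NK cell and innate lymphoid genes held 2.79 and 2.36 CPM in the controls and 21.1 and 11.4 in fl/fl, and 1 of the 2 tested, Nkg7, rose. Of 3 tested eosinophil genes, Prg2 rose, from 0 counts in both controls to 17 and 47 counts, and met the count filter only through the fl/fl libraries. The erythroid gene Slc4a1 was at 0 in every library and Klf1 was at 0.175 CPM or less. The summed erythroid level was 40.3 to 42.6 CPM in the controls and 55.4 and 103 CPM in fl/fl 1 and 2. The T cell gene Cd3e was at 0 in 3 libraries and at 0.0737 CPM in wt/wt 2, and the sum of the T cell list was 0.988 to 1.57 CPM. For B and plasma cells the sum was 17.0 and 29.6 CPM in the controls and 14.3 and 11.9 in fl/fl. The 6 stem and early progenitor genes summed to 15.1 and 15.6 CPM in the controls and 21.4 and 8.62 in fl/fl. Of the 4 tested, 0 rose and 1 fell, with the largest change of that list (−3.09). Kit, with the largest positive change, held 1.30 and 1.22 CPM in the controls and 13.7 and 2.23 in fl/fl, and did not pass (2.66, adjusted p = 0.111).

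**Figure D5:**
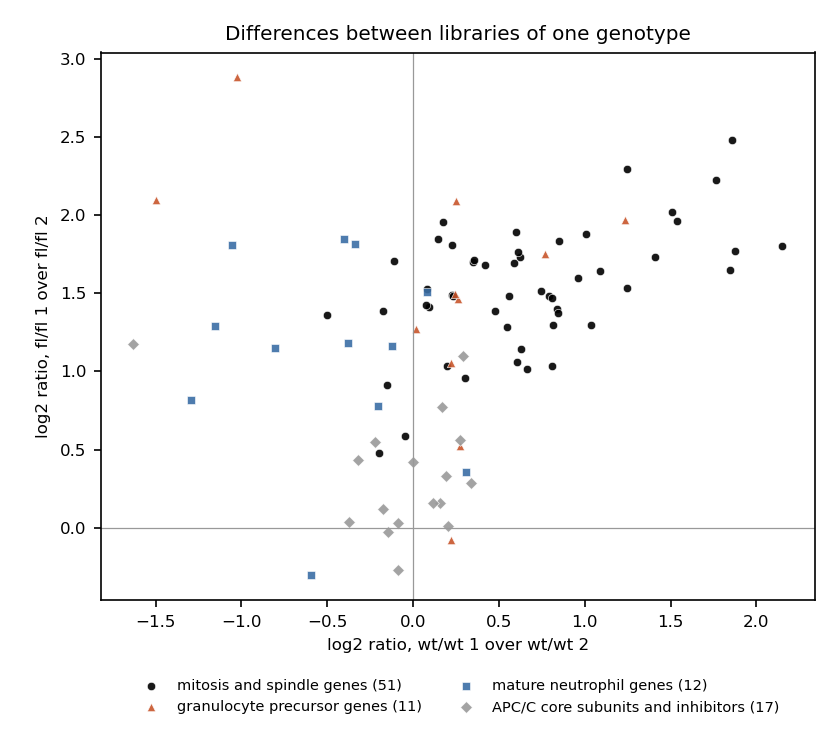
Ratio (log2) of fl/fl 1 to fl/fl 2 against that of wt/wt 1 to wt/wt 2 for the 51 mitotic genes, granulocyte precursor genes, mature neutrophil genes and APC/C core genes; each point is a gene. All 51 mitotic genes, 10 of 11 precursor genes and 11 of 12 neutrophil genes lie above 0 on the vertical axis. To the right of 0 lie 45 of the mitotic genes, 9 of the precursor genes and 2 of the neutrophil genes.

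Counting on an unknown strand limits some values. Over 10% of the exonic length lay under a gene on the other strand for 6 of the 51: Kif20a (29.3%), Ube2c (22.8%), Kif4 (15.1%), Ncapg (13.4%), Ccna2 (12.5%) and Prc1 (11.1%). Ube2c and Ccna2 are among the called genes.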

How the data were processed

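The deposited table holds raw counts for each Ensembl gene in 4 libraries, as made by the authors. The submitters' processing notes list STAR 2.5.0, Trimmomatic 0.33, FastQC 0.11.5 and GRCm38. How reads were counted, on which strand and over which annotation is not given in the sources used here. Gene symbols, positions and exon lengths (union of annotated exons) came from GENCODE M21 (GRCm38), and promoter windows from RefSeq (GRCm38.p6). Counts were fitted with edgeR 4.0.16 in R 4.3.3: filterByExpr at a minimum count of 10, TMM scaling, quasi-likelihood F test without covariates, and Benjamini-Hochberg adjustment over 13496 genes, with an adjusted p under 0.05 passing. The prior count was 0.125, and the SE was taken as |log2 fold change| divided by √F. With 2 libraries against 2, an exact permutation test cannot go below p = 0.333, and p-values measure the spread between these samples. Intervals within a library would cover counting error only.

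Alternatives were RLE, upper quartile and library size scaling, no filter, a CPM filter of 5, DESeq2 1.42.0, limma-voom (limma 3.58.1), a replicate block and leaving out each library; DESeq2 on 3 libraries was added after seeing the data. The genes and lists were chosen with earlier results of these data known. Values in every library are given for Mki67, Top2a, Cdk1 and Stmn1, and in each function group for the gene with the highest mean CPM, the largest and smallest log2 fold change and the smallest p. Further values shown (Ccnb1, Bub1b, Kif20a, Kif2c, Kif4 and Cenpk) were chosen after they were seen. From other lists, up to 3 genes with the smallest p and the most abundant gene are named; Kit, Klf1, Slc4a1, Cd3e and Adgre1 were named after their values were seen.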

Additional observations from a re-analysis of the deposited data

How the results depend on the processing

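The 51 mitotic genes stayed positive in log2 fold change, and 0 were called lower, under every alternative run, except that Cenpa was at −0.29 in edgeR and −0.28 in DESeq2 without fl/fl 1 (0.26 to 0.79 without another library in edgeR). The number called higher was 32 to 49 under the scalings, filters (44 of the 51 tested at a CPM of 5) and DESeq2, and 11 with limma-voom. With single libraries left out it ranged from 0 to 50 in edgeR and from 24 to 48 in DESeq2, and the median log2 fold change from 1.75 to 3.38. The smallest median in DESeq2 on 3 libraries was also without fl/fl 1, at 1.76. All genes called higher and lower numbered 363 and 427, against 784 and 834 with DESeq2, 1017 and 1071 without a filter, and 0 to 841 and 0 to 724 with single libraries left out (278 to 735 and 222 to 698 in DESeq2, where 671 were lower without fl/fl 1). The replicate numbers are shared between the genotypes without a stated pairing. Differences between libraries 1 and 2 correlated at 0.0215 over genes between the genotypes. With the replicate block, 47 of the 51 and 602 genes in all were higher and 613 lower. The cause of these differences was not tested. A group reduced to 1 library takes its spread from the other group by assumption, so numbers called higher are not given for such fits. Depth limits genes with few counts in the controls, such as Cenpk (19 and 5) and Ttk (10 and 9).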

Other observations

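Genes that act before mitosis changed in both directions. Of 18 tested G1 cyclins, kinases and inhibitors, 4 rose and 3 fell (median 0.20, or 0.09 without fl/fl 1). The D-type cyclins, which carry growth signals into the cycle, went opposite ways. Ccnd1 held 26.4 and 15.3 CPM in the controls and 2.21 and 2.11 in fl/fl (a log2 change of −3.27 ± 0.36, SE; adjusted p = 0.0120, edgeR). Ccnd2 held 33.6 and 27.0 against 5.07 and 5.19 CPM (−2.56 ± 0.24; adjusted p = 0.00879). Ccnd3, named after its values were seen, held 111 and 158 against 370 and 285 CPM (1.29 ± 0.23; adjusted p = 0.0286). For Ccnd1 and Ccnd2, the values in fl/fl 1 and fl/fl 2 were close. The inhibitor Cdkn1a (p21) fell from 686 and 596 to 280 and 298 CPM (−1.15, adjusted p = 0.0191), and the inhibitors Cdkn2c and Cdkn2d, named after their values were seen, rose (1.76 and 1.03, adjusted p = 0.0381 and 0.0342). The most abundant gene of the list, the antiproliferative Btg2, held 2299 and 2430 against 1779 and 2049 CPM and did not pass.

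Of 23 tested DNA replication genes, all 23 had a log2 fold change above 0 and 4 rose (DESeq2 14, limma-voom 1). The median was 1.79, or 0.66 without fl/fl 1. Rrm2, a subunit of ribonucleotide reductase, held 6.20 and 6.41 CPM in the controls and 138 and 39.1 in fl/fl (3.81, adjusted p = 0.0196). Uhrf1, which copies DNA methylation to new strands, and the replication factor gene Mcm10 were at 3.45 and 2.75 (adjusted p = 0.0243 and 0.0383). Pcna, the polymerase clamp and the most abundant of the list, held 237 and 170 against 217 and 194 CPM (0.02, adjusted p = 0.974). In all 23, fl/fl 1 was the higher fl/fl library, and in 12 wt/wt 1 was the higher control.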
